A study of Rattus norvegicus with 8 samples.

Results

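The genes described here encode the enzymes and binding proteins that write, erase and read DNA methylation and histone marks, together with remodellers that move nucleosomes. They were chosen by gene symbol, as all probe sets whose annotation gives exactly 1 of 44 listed symbols, whatever their values. Of these, 40 genes had such a probe set, with 68 probe sets among the 31042 non-control probe sets of the array. Suv39h1 and Prmt1 were represented only by probe sets that also name a second gene and were left out. Hdac9 and Sirt1 had no probe set listed with 1 symbol. A filter on dim probe sets kept 58 probe sets of 38 genes. It removed 10 probe sets, among them the only ones of Dnmt3b and Tet1.

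The samples were 8 Affymetrix arrays of male Sprague-Dawley rats of generation 3 (F3), bred from a founder pregnancy injected intraperitoneally on gestation days 8 to 14. Vinclozolin is a fungicide whose metabolites block the androgen receptor. There were 4 groups of 2 arrays: whole ventral prostate at 180 days from the control and from the vinclozolin lineage, and prostate epithelium at 45 days from each lineage. The F3 animals were thus not themselves exposed, and the comparison asks whether their prostate RNA differs by lineage. The lineage comes from the sample titles, since the treatment protocol names the DMSO vehicle for all 8 samples. Each array held pooled RNA, of 11 animals for epithelium and of an unstated number for whole prostate. The labels do not say that the 2 pools of a group held different animals, and the p-values therefore rest on array-to-array spread alone, which may be technical. With 2 arrays per group, the number of arrays limits the precision. In bulk RNA, fewer cells of a type and less RNA per cell cannot be told apart.

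As background, DNA methyltransferases add methyl groups to cytosines of CpG dinucleotides, the mark that can be copied through cell division, and TET enzymes oxidise it. Histone acetyltransferases and deacetylases set acetylation at promoters and enhancers. Methyltransferases of histone H3 set marks of active chromatin (lysine 4) or of silent chromatin (lysines 9 and 27). These systems are the usual candidates for carrying an altered state across generations. In the prostate, several of them, such as EP300, CREBBP, KDM1A and HDAC1, also act as cofactors of the androgen receptor.

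Promoter windows of the pair of members that passed the test of lineage in whole prostate, Setd1b and Chd1l, are shown because their RNA was lower in the same arrays. Each sequence is the 250 bases before 1 transcript start that the RefSeq promoter table gives on assembly GRCr8, read 5′ to 3′ on the gene's minus strand, with every CpG in capitals. Neither start is the outermost one of its gene: the annotated gene reaches 278 bases further upstream of the Setd1b window and 20111 bases further upstream of the Chd1l window. Which start these cells use was not measured. They lie at chr12:39081872-39082121 (Setd1b) and chr2:187885999-187886248 (Chd1l).
Setd1b: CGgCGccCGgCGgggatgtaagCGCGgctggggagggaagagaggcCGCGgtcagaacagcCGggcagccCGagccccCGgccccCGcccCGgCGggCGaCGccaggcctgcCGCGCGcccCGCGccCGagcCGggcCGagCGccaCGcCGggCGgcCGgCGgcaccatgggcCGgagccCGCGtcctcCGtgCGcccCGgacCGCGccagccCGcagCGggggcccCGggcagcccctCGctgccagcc
Chd1l: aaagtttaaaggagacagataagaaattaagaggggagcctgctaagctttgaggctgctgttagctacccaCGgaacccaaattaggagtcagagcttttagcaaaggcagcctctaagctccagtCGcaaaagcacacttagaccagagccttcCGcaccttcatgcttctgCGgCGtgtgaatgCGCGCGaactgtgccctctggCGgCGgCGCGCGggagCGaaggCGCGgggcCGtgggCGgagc
The Setd1b window held 42 CpG dinucleotides, a number that 0.838% of 27457 RefSeq promoter windows of this length reached. The Chd1l window held 18, which 21.7% reached. Of the 40 members measured, 37 had a window, with a median of 19 CpG (range 1 to 43) against a median of 6 over all windows. At least 10 CpG were found in 83.8% of the members' windows and in 38.4% of all. For most members, too, the start was not the outermost one, and the gene reaches 91036 bases further upstream of the Dnmt3a window. The set of all windows was not limited to genes on the array. A CpG count describes the sequence only; DNA methylation was not measured in these samples.

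Arrays were on a common scale as deposited, with medians of 28.7 to 38.7 intensity units. The luminal epithelial genes Krt8, Epcam and Pbsn (probasin, the androgen-dependent secreted protein) were bright on all 8 arrays, with Pbsn between 6516 and 8028. The epithelium samples also held stromal RNA, against their label. Acta2, smooth muscle actin, read 1744 to 2117 in epithelium and 119 to 183 in whole prostate, and Col1a1, a fibroblast collagen, read 1932 to 2049 and 194 to 255. The ratio of 3' to 5' signal of the beta-actin control, a sign of RNA quality, was 3.74 and 3.98 in whole control, 3.37 and 3.14 in whole vinclozolin and 2.26 to 2.57 in epithelium. The part of cell makeup and RNA quality in the results below was not tested.

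At 180 days, Setd1b and Chd1l fell in whole prostate from the vinclozolin lineage, and no other member passed. Setd1b is the catalytic subunit of a complex that methylates lysine 4 of histone H3, and the complex is targeted to unmethylated CpG islands. Setd1b had only 1 probe set, so its values cannot be set beside those of another. Its deposited intensities were 390 and 404 in whole control and 106 and 103 in whole vinclozolin. The vinclozolin arrays lay far below the control arrays, and the arrays of each group were close to each other. On the log2(intensity + 16) scale, vinclozolin minus control was -1.66 ± 0.12 (SE of the fit, n = 2 arrays per group), or 3.17-fold lower (limma adjusted p = 0.00294). Without whole control replicate 2 the change was -1.63 and the adjusted p 0.0518.

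Chd1l encodes a nucleosome remodeller that is recruited to sites of DNA damage by poly(ADP-ribose). Its brightest probe set, the one with the highest mean over the arrays, read 226 and 228 in whole control and 103 and 93.5 in whole vinclozolin. The groups did not overlap, and the change was -1.002 ± 0.12, or 2.00-fold lower (adjusted p = 0.0162). A separate Chd1l probe set read 58.8 and 73.4 against 13.8 and 28.6, a change of -1.15 ± 0.23 that did not pass (adjusted p = 0.0660). Both probe sets of Chd1l thus had the same direction and a like size. The call of the brighter one was lost in 5 of 18 alternative settings. These were the fit of the 4 whole prostate arrays alone and the fits with any of these arrays left out. With an array left out its change stayed between -1.04 and -0.94.

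**Figure D1:**
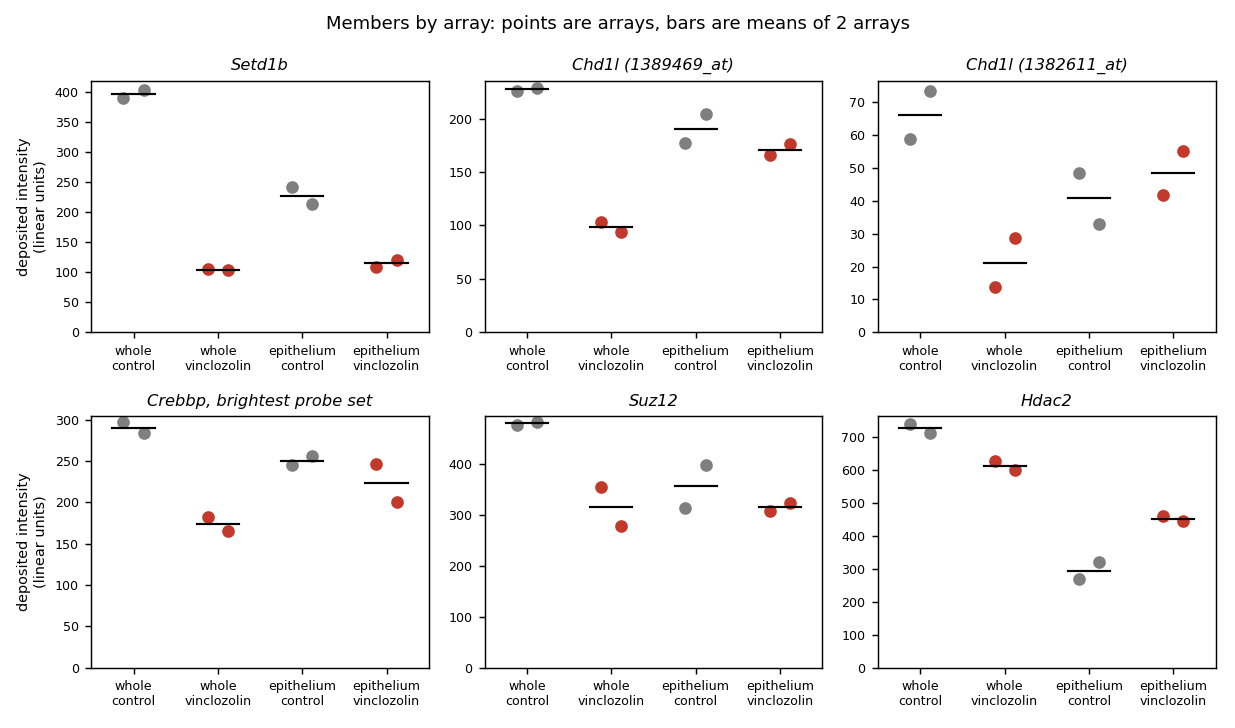
Deposited intensity (linear units, vertical axis from 0) of 6 member probe sets in the 4 groups on the horizontal axis; points are single arrays and bars the mean of 2 arrays. Setd1b read 390 and 404 in whole control and 103 to 120 in the 4 vinclozolin arrays, and Hdac2 was highest in whole control.

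These 2 calls are 3.45% of the 58 member probe sets tested. Of all 21729 probe sets tested, 1.74% were called in this comparison, 0.819% higher and 0.925% lower. With 2 calls, the members' share is near that background. The arrays of the groups did not overlap for 26 member probe sets (44.8%), against 53.9% of all. Taking each gene by its brightest probe set, 26 of 38 members were lower and 12 higher, with a median of -0.12, while the median over 11485 genes was -0.0010. The median size of a change was 0.16 over the members and 0.21 over all probe sets, and 50 of 58 member probe sets measured within 0.5 of no change.

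The enzymes of DNA methylation itself did not pass in whole prostate. Dnmt1, the maintenance methyltransferase, read 43.2 and 55.5 in whole control and 41.1 and 46.8 in whole vinclozolin. These ranges overlap, and the change was -0.11 ± 0.15, with a 95% interval of the fit from -0.47 to 0.24. Uhrf1, which brings DNMT1 to newly replicated DNA, was dim, at 9.9 and 7.1 against 15.2 and 13.3. Its change was 0.26 ± 0.20 (adjusted p = 0.542). Dnmt3a, a de novo methyltransferase, had changes of -0.09 ± 0.31 and 0.18 ± 0.25 on its probe sets, and its brighter one read 23.7 and 18.7 against 17.7 and 24.0. The intervals of these genes leave room for changes of moderate size, -0.83 to 0.65 for the brighter probe set of Dnmt3a. Dnmt3b read between 2.8 and 20.9 over the 8 arrays, under the filter. Tet1, also under it, read 2.6 and 8.3 in whole control and 17.0 and 24.4 in whole vinclozolin, and 16.5 and 16 against 7.6 and 2.7 in epithelium. Its groups did not overlap in either preparation, in opposite directions and at dim levels, and it was not tested.

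The genes for oxidation and binding of methylcytosine did not pass either. Tet2 read 154 and 126 in whole control and 119 and 120 in whole vinclozolin, a change of -0.15 ± 0.14 that did not pass. Tet3 read 66.9 and 76.5 against 46.9 and 55.4 on its brightest probe set, with no overlap, and its change of -0.34 ± 0.14 did not pass (adjusted p = 0.259). Its other tested probe set gave -0.59 ± 0.44. Among methyl-CpG binding proteins, Mbd1 measured -0.29 ± 0.12, Mbd2 -0.15 ± 0.11 and Mbd3, a subunit of the NuRD repressor complex, 0.12 ± 0.14, and none passed.

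Of the acetyltransferases, the paralogous coactivators Crebbp and Ep300 came closest to the threshold. Crebbp read 297 and 284 in whole control and 182 and 166 in whole vinclozolin on its brightest probe set. The groups lay apart, and the change of -0.64 ± 0.14 missed the threshold (adjusted p = 0.0755). It passed with 5 of 18 alternative settings. Its other tested probe sets measured -0.15 ± 0.15 and -0.37 ± 0.16. Ep300 read 375 and 340 against 297 and 232 (-0.38 ± 0.14, adjusted p = 0.224) on its brightest probe set, and its other one measured 0.06 ± 0.20. Kat2b and Kat2a, the GCN5-type acetyltransferases, measured -0.26 ± 0.12 and 0.09 ± 0.27.

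In the polycomb repressive complex 2, which methylates lysine 27 of histone H3, all 3 subunits had negative changes and 0 passed. Suz12 read 477 and 483 in whole control and 354 and 277 in whole vinclozolin. The vinclozolin arrays were both below the controls but differed among themselves, and the change was -0.54 ± 0.16 (adjusted p = 0.150). Ezh2, the catalytic subunit, scattered within groups, at 48.6 and 20.5 against 24.1 and 5.4, so its change of -0.80 ± 0.38 is poorly determined. Eed measured -0.15 ± 0.13.

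The deacetylases had 0 calls in whole prostate. On their brightest probe sets the 9 measured Hdac genes ranged from -0.38 ± 0.20 for Hdac8 to 0.12 ± 0.14 for Hdac3. Hdac1 (-0.12 ± 0.13) and Hdac2 (-0.22 ± 0.12), the core enzymes of several repressor complexes, lay between them. Among demethylases, Kdm1a, which acts on lysine 4 of histone H3, measured 0.01 ± 0.11 and Kdm6b, which acts on lysine 27, -0.03 ± 0.12. Kdm5b measured -0.03 ± 0.17 on its brightest probe set. The lysine 9 methyltransferases Setdb1 and Ehmt2 measured -0.14 ± 0.11 and -0.14 ± 0.20, and neither passed. On the dimmer probe set of Setdb1 the groups lay apart, and its change of -0.65 ± 0.27 did not pass (adjusted p = 0.259). Of the remodellers other than Chd1l, the SWI/SNF core subunit Smarcb1 read 219 and 258 in whole control and 166 and 189 in whole vinclozolin (-0.35 ± 0.13, adjusted p = 0.230). The ATPases Smarca4 (-0.09 ± 0.15) and Smarca2 (0.23 ± 0.24), Arid1a (0.01 ± 0.11) and Chd4 of NuRD (0.09 ± 0.13) did not pass. The arginine methyltransferases Prmt5 and Carm1 measured -0.05 ± 0.14 and 0.16 ± 0.20.

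Markers of other cells differed between the same arrays. Skeletal muscle markers summed to 3315 to 3526 intensity units over 11 genes in whole control and to 1627 to 1658 in whole vinclozolin, with 6 genes called lower. Lymphocyte markers summed to 269 to 284 and 469 to 523 over 14 genes, of which 6 were below the filter and 0 were called, and 2 of 12 macrophage markers were called higher. The summed macrophage level was nevertheless lower, at 7617 to 8241 in whole control and 5573 to 6292 in whole vinclozolin. Luminal markers summed to 47049 to 47496 and 44348 to 44906 over 13 genes, 2 called lower. Endothelial markers summed to 294.3 to 302.9 and 332.5 to 364.6 over 9 genes, 1 called higher. Fibroblast markers summed to 3397 to 3401 and 3101 to 3143. Sums of smooth muscle (7312 to 7546 and 7558 to 7929) and basal markers (997 to 1016 and 1031 to 1038) also lay apart, narrowly. Adipocyte and proliferation sums overlapped. The part of these differences in the values of Setd1b and Chd1l was not tested.

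In epithelium, 0 member probe sets were called, and of all probe sets 0.00920% were, with 0.00460% higher and 0.00460% lower. At an unadjusted p under 0.05 there were 9 of 58 member probe sets, where 11.4% of all passed. The arrays of the groups did not overlap for 29 (50%), 10 of them lower, against 39.4% of all, 19.7% lower. Setd1b had the lowest p of the members. It read 241 and 214 in epithelium control and 110 and 120 in epithelium vinclozolin, so the groups were again apart in the direction seen in whole prostate. Its change was -0.95 ± 0.12 (adjusted p = 0.113), and the call depended on the settings: the adjusted p ranged from 0.00128 to 0.569 over the alternatives, and 3 of 18 passed. The whole and epithelium comparisons share no array, but they share the lineages and the fit's common estimate of the spread.

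Cell markers also lay apart between the epithelium arrays of the 2 lineages. Summed levels in control and vinclozolin arrays were 8001 to 8137 and 6886 to 7005 for skeletal muscle, and 8831 to 10287 and 7299 to 7480 for macrophages. They were 19975 to 20243 and 18358 to 18466 for smooth muscle, and 2978 to 3262 and 3454 to 3532 for proliferation, with 0 genes of these 4 lists called. Their part in the values of Setd1b and Hdac2 was not tested.

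The next lowest p among brightest probe sets belonged to Hdac2, with a positive change. Hdac2 read 269 and 321 in epithelium control and 461 and 446 in epithelium vinclozolin (0.62 ± 0.12, adjusted p = 0.227). In whole prostate its vinclozolin arrays were the lower ones, at 628 and 600 against 740 and 715. Hdac6, a cytoplasmic deacetylase of tubulin, read 22.8 and 48.4 against 96.4 and 70.3 (1.00 ± 0.33, adjusted p = 0.357). Hdac11 read 52.4 and 76.7 against 43.9 and 16.9 (-0.87 ± 0.29, adjusted p = 0.357). For both genes the arrays of a group differed widely, as the SE shows. Crebbp measured -0.16 ± 0.14 on its brightest probe set (adjusted p = 0.719). Its other tested probe sets were positive, at 0.22 ± 0.15 and 0.72 ± 0.16 (adjusted p = 0.645 and 0.255).

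Chd1l did not pass in epithelium. It read 177 and 204 in epithelium control and 166 and 176 in epithelium vinclozolin, a change of -0.15 ± 0.12 with an interval from -0.44 to 0.13 (adjusted p = 0.685). These groups did not overlap either, by a narrow margin and with the vinclozolin arrays again the lower ones. Its other probe set measured 0.15 ± 0.23. Dnmt1 read 111 and 91.0 against 92.1 and 82.4 (-0.22 ± 0.15), Uhrf1 42.4 and 50.7 against 54.8 and 83.0 (0.42 ± 0.20), and none of the DNA methylation genes passed. Dnmt3a measured 0.11 ± 0.31 on its brighter probe set, where 1 vinclozolin array read 59.0 and the other 22.3, and Ezh2 0.12 ± 0.38. Tet2 and Tet3 measured -0.33 ± 0.14 and -0.14 ± 0.14. Mbd1 measured -0.37 ± 0.12, Setdb1 -0.29 ± 0.11, Kdm1a -0.28 ± 0.11, Hdac5 0.25 ± 0.10, Hdac7 0.29 ± 0.17 and Chd4 0.21 ± 0.13, with none passing. On their other tested probe sets Setdb1, Hdac5 and Ezh2 had the opposite sign (0.62 ± 0.27, -0.15 ± 0.18 and -0.27 ± 0.25), and none passed. The members' median in epithelium was 0.02, and 20 of 38 were higher.

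**Figure D2:**
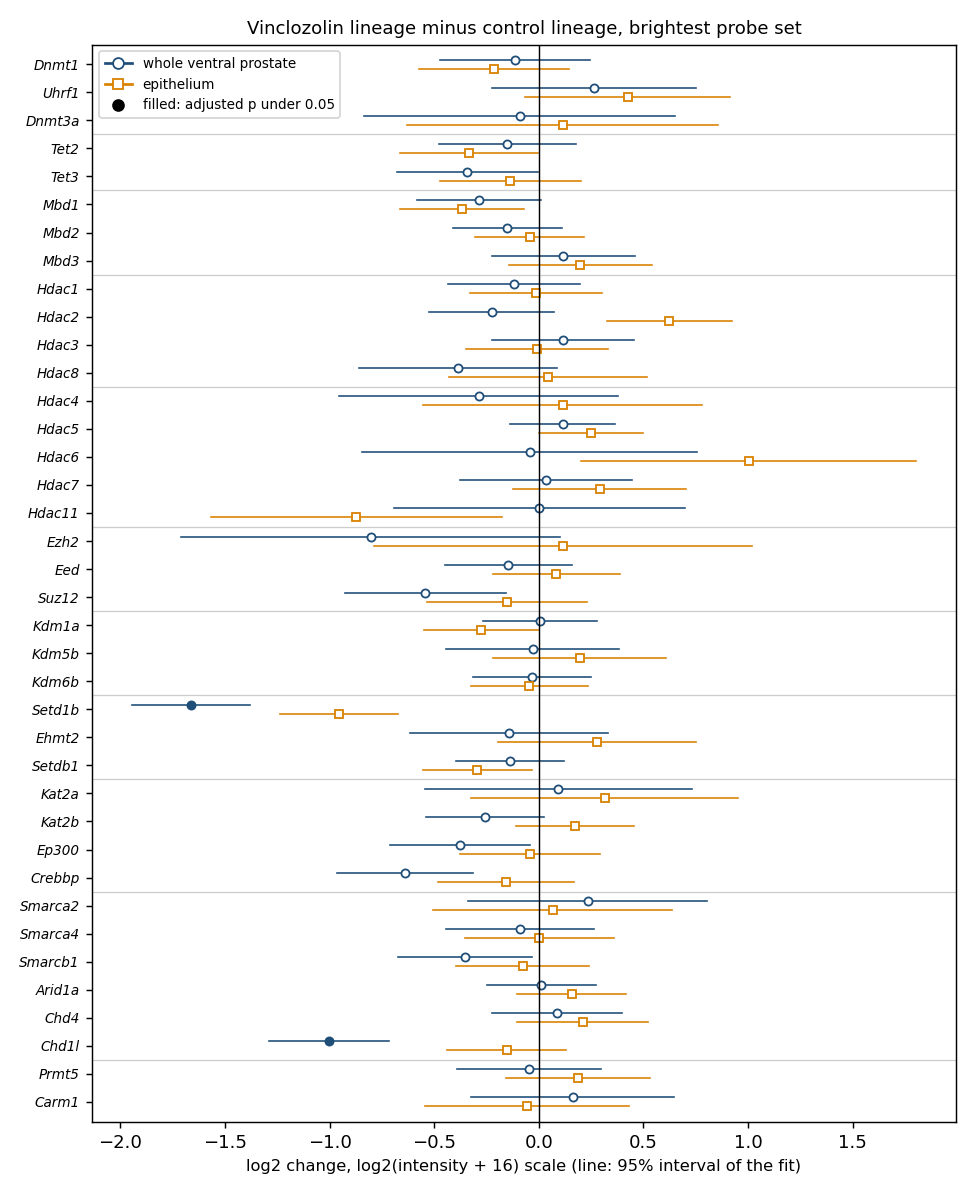
Log2 change, vinclozolin minus control lineage (horizontal axis, log2(intensity + 16) scale), of the brightest probe set of the 38 tested genes, for whole ventral prostate (circles) and epithelium (squares), with 95% intervals of the fit, 2 arrays per group; grey lines separate roles. Setd1b at -1.66 and Chd1l at -1.002 in whole prostate are the 2 filled symbols (adjusted p under 0.05).

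The lineage effects of the preparations were compared directly. Of the member probe sets, 0 differed at an adjusted p under 0.05, against 0.290% of all, and 8 of 58 had an unadjusted p under 0.05, against 13.5%. For Chd1l the epithelium effect minus the whole prostate effect was 0.85 ± 0.17 (adjusted p = 0.138) and 1.31 ± 0.33 (adjusted p = 0.201) on its probe sets. For Setd1b it was 0.71 ± 0.17 (adjusted p = 0.184) and for Hdac2 0.85 ± 0.18 (adjusted p = 0.148). For Crebbp it was 0.48 ± 0.19 on the brightest probe set (adjusted p = 0.352). The other tested probe sets of Crebbp gave 0.37 ± 0.21 and 1.08 ± 0.22 (adjusted p = 0.501 and 0.147). Among negative differences, Hdac11 measured -0.87 ± 0.41 (adjusted p = 0.413). A difference in lineage effect between preparations is therefore not shown for any member, Chd1l included. By brightest probe set, 28 of 38 members had a positive difference and 10 a negative one. Their median was 0.21, against -0.0057 over 11485 genes, and this shift of the members as a set was not tested. Age changed with preparation here as well. The sign of the lineage change was the same in both preparations for 29 of 58 member probe sets (50%), and for 54.2% of all probe sets.

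Of 139 further chromatin genes on the array, 133 had a tested brightest probe set, with 240 probe sets. In whole prostate 2 of these fell and 0 rose, or 0.833% against the 1.74% of all probe sets. Idh1, whose enzyme makes the cosubstrate of TET and histone demethylases, read 856 and 906 in whole control and 537 and 496 in whole vinclozolin (-0.75 ± 0.11, adjusted p = 0.0285). Ash1l, a methyltransferase of lysine 36 of histone H3, read 448 and 438 against 279 and 237 (-0.70 ± 0.12, adjusted p = 0.0458). The other probe sets of Ash1l, at -0.13 ± 0.14 and 0.19 ± 0.18, and of Idh1, at -0.28 ± 0.17, did not pass. In epithelium, and in the difference of effects, 0 of the 240 probe sets of this list were called. Over the brightest probe sets of the 133 genes the median change was -0.03 in both preparations.

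Epithelium at 45 days and whole prostate at 180 days differed far more than the lineages did. Age and preparation changed together and cannot be told apart. Among control arrays 15 of 58 member probe sets passed (25.9%), with 6 above and 9 below whole prostate in epithelium, against 27.8% of all probe sets. Among vinclozolin arrays, which are separate samples, 17 passed (29.3%), 12 above and 5 below, against 27.4%. In both lineages the same 10 probe sets were called in the same direction, as were 17.2% of all. At an unadjusted p under 0.05 there were 21 members in control and 28 in vinclozolin arrays, against 40.1% and 40.3% of all. The arrays did not overlap for 38 (65.5%) and 44 (75.9%), against 66.6% and 65.4% of all. Scaling shifts this comparison: with median centring all probe sets shifted by -0.20 in the median of the control comparison against -0.05 here, and the member calls became 6 higher and 21 lower. In the vinclozolin comparison they became 11 higher and 13 lower.

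Kdm6b, the demethylase of lysine 27 of histone H3 that is induced in inflammation and differentiation, had the largest difference among brightest probe sets in each lineage. It read 137 and 147 in whole control, 135 and 136 in whole vinclozolin, 504 and 529 in epithelium control and 533 and 462 in epithelium vinclozolin. Epithelium exceeded whole prostate on all arrays, by 1.80 ± 0.12 in control (adjusted p = 0.000248) and 1.79 ± 0.12 in vinclozolin arrays (adjusted p = 0.000254). Between lineages it measured -0.03 ± 0.12 in whole prostate and -0.04 ± 0.12 in epithelium.

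The maintenance pair was also higher in epithelium. Dnmt1 was higher by 0.72 ± 0.15 in control (adjusted p = 0.0151) and 0.62 ± 0.15 in vinclozolin arrays (adjusted p = 0.0251), and Uhrf1 by 1.16 ± 0.20 and 1.32 ± 0.20 (adjusted p = 0.00839 and 0.00554). The Dnmt1 call was lost in 2 of 18 alternative settings in control and in 4 of 18 in vinclozolin arrays. Uhrf1 was near the floor of the array in whole prostate, at 7.1 to 15.2. Its control change ran from 0.52 to 1.97 over the alternative settings. On its brightest probe set Ezh2 read 62.6 to 85.2 on the 4 epithelium arrays and 5.4 to 48.6 on the 4 whole prostate arrays. It passed in vinclozolin arrays (1.55 ± 0.38, adjusted p = 0.0255) and not in control arrays (0.63 ± 0.38, adjusted p = 0.263), and the difference of these, 0.92 ± 0.53, did not pass. The Ezh2 call in vinclozolin arrays was lost in 5 of 18 alternative settings. Its other tested probe set measured 0.80 ± 0.25 in control and 0.72 ± 0.25 in vinclozolin arrays, passing in neither (adjusted p = 0.055 and 0.0748). Proliferation markers differed in the same way, with 13 of 21 genes called higher in control epithelium and 12 in vinclozolin epithelium, and 0 lower. Their summed intensity was 2978 to 3532 in epithelium and 1251 to 1311 in whole prostate. Mki67, a marker of cycling cells, read 185 to 267 in epithelium and 18.2 to 42.2 in whole prostate. Other lists also differed. In each lineage 9 of 10 fibroblast, 9 of 10 smooth muscle, 8 of 10 basal and 5 of 9 endothelial genes were called higher in epithelium. Adipocyte genes were called lower, 5 of 7 in control and 6 of 7 in vinclozolin arrays. Luminal, skeletal muscle, macrophage and lymphocyte lists had calls in both directions, in control or vinclozolin arrays. The part of cycling cells, or of any other cell type, in the levels of Dnmt1, Uhrf1 and Ezh2 was not tested.

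Members that were lower in epithelium in both lineages were Setdb1 on its brightest probe set (-0.69 ± 0.11 and -0.85 ± 0.11 in control and vinclozolin arrays) and Mbd1 (-0.44 ± 0.12 and -0.52 ± 0.12). In control arrays alone, Hdac2 was lower by a change of -1.18 ± 0.12 (adjusted p = 0.00131), Setd1b by -0.68 ± 0.12 (adjusted p = 0.00812), Kat2b by -0.64 ± 0.12 (adjusted p = 0.00975) and Prmt5 by -0.48 ± 0.14 (adjusted p = 0.0497). In vinclozolin arrays these measured -0.33 ± 0.12, 0.03 ± 0.12, -0.21 ± 0.12 and -0.24 ± 0.14 and did not pass. For Setd1b, whole control arrays were the highest, epithelium control arrays came next, and the 4 vinclozolin arrays of both preparations read 103 to 120. In vinclozolin arrays alone, Chd1l (0.66 ± 0.12, adjusted p = 0.00970), Mbd3 (0.51 ± 0.14, adjusted p = 0.0396) and Tet3 (0.48 ± 0.14, adjusted p = 0.0451) were higher in epithelium. As given above, 0 members passed the test of whether the difference between preparations itself differed by lineage. Several of these calls were lost with most of the 18 alternative settings: in 10 for Mbd1 in control arrays (adjusted p up to 0.171), 10 for Prmt5 (up to 0.201), and 11 each for Mbd3 (up to 0.167) and Tet3 (up to 0.179). Mbd1 in vinclozolin arrays lost its call in 4.

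**Figure D3:**
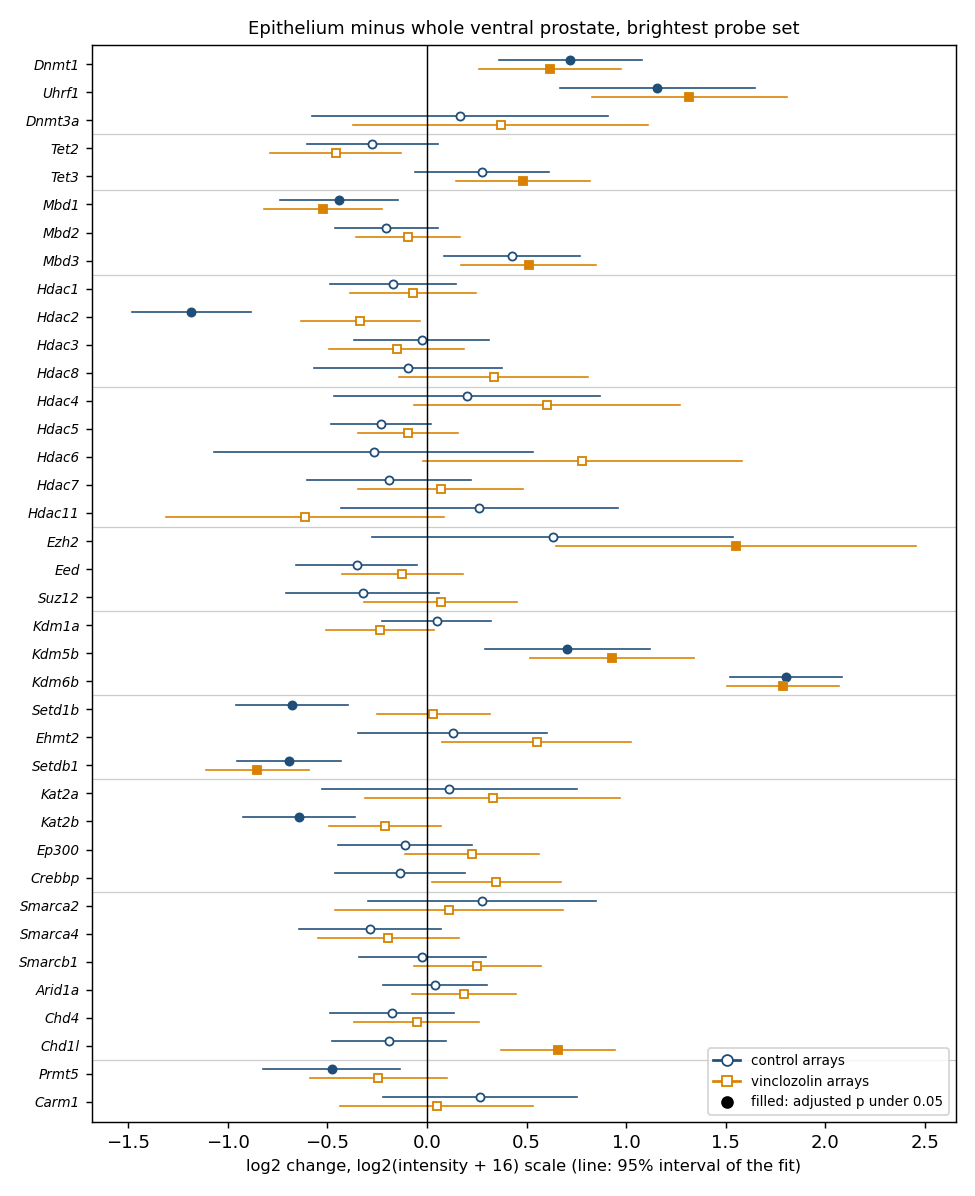
Log2 change, epithelium at 45 days minus whole ventral prostate at 180 days (horizontal axis, log2(intensity + 16) scale), of the brightest probe set of the 38 tested genes, in control arrays (circles) and vinclozolin arrays (squares), with 95% intervals of the fit, 2 arrays per group; filled symbols have an adjusted p under 0.05. Kdm6b lies at 1.80 and 1.79, and Hdac2 and Setd1b are filled in control arrays only.

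Probe sets of one gene often disagreed, in this comparison and between lineages. Of 15 member genes with several tested probe sets, 4 had mixed signs of the lineage change in whole prostate and 11 in epithelium. Between epithelium and whole prostate, 5 had mixed signs in control arrays and 10 in vinclozolin arrays. For 0 genes were all probe sets called. Kdm5b, a demethylase of lysine 4 of histone H3, was higher in epithelium on 1 probe set (0.71 ± 0.17 and 0.93 ± 0.17, passing in both lineages). On another it measured -0.60 ± 0.19 in control and -1.07 ± 0.19 in vinclozolin arrays (adjusted p = 0.0607 and 0.00953). It was the 1 member called in opposite directions within a comparison. Smarca4 was higher by 1.29 ± 0.14 and 1.60 ± 0.14 on 1 of 3 probe sets and measured -0.29 to 0.14 on the others.

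Crebbp, too, differed by probe set. It was lower in epithelium on a pair of dimmer probe sets (-1.03 ± 0.15 and -0.66 ± 0.15 on the one, -1.78 ± 0.16 and -0.70 ± 0.16 on the other), all passing, while its brightest one measured -0.13 ± 0.14 and 0.35 ± 0.14. Dnmt3a was higher by 1.35 ± 0.25 and 1.58 ± 0.25 on its dimmer probe set (adjusted p = 0.0102 and 0.00613) and measured 0.16 ± 0.31 and 0.37 ± 0.31 on the brighter. On that dimmer probe set the whole prostate arrays read 1.6 to 13.1, near the floor of the array. The dimmer probe sets of Hdac1 (0.90 ± 0.17) and Chd4 (0.60 ± 0.15) passed as higher in vinclozolin arrays, and that of Ep300 (-0.70 ± 0.20) as lower in control arrays. The brightest probe sets of these 3 genes did not pass. The Ep300 call was lost in 13 of 17 alternative settings, with changes from -1.22 to -0.31, and the Chd4 call in 6 of 18. Setdb1, lower on its brightest probe set, measured -0.54 ± 0.27 in control and 0.73 ± 0.27 in vinclozolin arrays on its dimmer one, neither passing. For Kdm5b and Smarca4 the sign differed between probe sets in both lineages, while for Dnmt3a it was the size and the call that differed. The actin ratio given above also differed between the preparations, and its part in this was not tested.

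**Figure D4:**
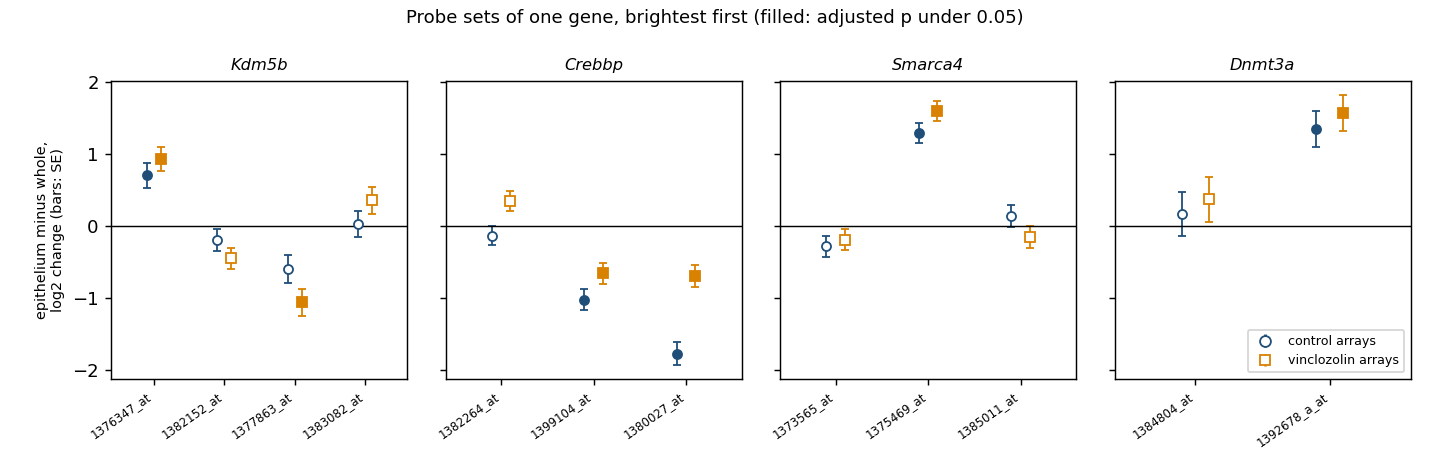
Log2 change, epithelium minus whole ventral prostate (vertical axis, bars are SE of the fit, 2 arrays per group), of each tested probe set of Kdm5b, Crebbp, Smarca4 and Dnmt3a on the horizontal axis, in control arrays (circles) and vinclozolin arrays (squares); filled symbols have an adjusted p under 0.05. Kdm5b has filled symbols above and below 0, at 0.93 and -1.07 in vinclozolin arrays.

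Of the 240 probe sets of the further chromatin genes, control epithelium had 25 calls above whole prostate and 46 below it. Vinclozolin epithelium had 28 above and 40 below. These calls are 29.6% and 28.3% of the list, near the 27.8% and 27.4% of all probe sets. The lowest p in control arrays belonged to Chd9, a remodeller (-1.72 ± 0.11 in control and -1.30 ± 0.11 in vinclozolin arrays). Cbx1, a heterochromatin protein that binds methylated lysine 9 of histone H3, was higher (1.505 ± 0.12 and 1.34 ± 0.12). Ezh1, the paralog of Ezh2, was lower (-1.02 ± 0.12 and -0.90 ± 0.12), opposite to the sign of Ezh2. Kmt5b, a methyltransferase of lysine 20 of histone H4, was lower in control arrays (-1.22 ± 0.16) and measured -0.41 ± 0.16 in vinclozolin arrays. Nsd3 was lower on 1 probe set (-1.32 ± 0.11 and -1.10 ± 0.11) and higher on another (0.75 ± 0.19 and 1.75 ± 0.19), and Atrx, a remodeller of heterochromatin, was higher on 1 (1.31 ± 0.16 and 1.14 ± 0.16).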

How the data were processed

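RNA of 8 samples was measured on Affymetrix expression arrays, 2 per group, with 1 biotin label per the labels' protocols. The authors deposited linear intensity values of 31099 probe sets. How they were computed is not stated in the labels used here. All arrays share a 2% trimmed mean of about 125 in the deposited values. Intensities were taken to log2(value + 16), without the 57 control probe sets, and quantile normalised, since array medians differed by 0.29. The added 16 understates changes of dim genes. A filter at the 30th percentile of the mean log2 value kept 21729 probe sets. Genes were named from 20832 probe sets with 1 symbol in the platform annotation, and 0 member symbols needed an update. Group means of all 8 arrays were fitted in R 4.3.3 using lmFit, contrasts.fit and eBayes of limma 3.58.1 (4 residual and 2.62 prior degrees of freedom) and adjusted by Benjamini-Hochberg over all probe sets tested, with calls at an adjusted p under 0.05. The fit was tested on simulated data. Figures used Python 3.11.15 and matplotlib 3.10.9. Promoter windows were taken from RefSeq (GRCr8).

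The members, lists and tests were chosen with earlier results of these data known. Every member may be named. In each comparison all called probe sets are, with some of the members of lowest p that did not pass. Of the other chromatin genes up to 6 called ones are named. Alternatives were other scalings, pseudocounts, filters, priors, array weights, the compared arrays alone, a replicate block and each array left out. Same-numbered replicates did not deviate together (correlations of -0.020 to 0.029), and the main fit held no replicate block. This does not show whether same-numbered samples were paired in the experiment.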

Additional observations from a re-analysis of the deposited data

How the results depend on the processing

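Of 79 gene changes followed over the alternatives, 73 kept their direction in all of them and 43 also their side of the threshold. The other 6 were not called and changed sign only with 1 array left out. In whole prostate the ranges were -0.016 to 0.25 for Hdac3, -0.031 to 0.35 for Carm1 and -0.20 to 0.012 for Dnmt3a. In epithelium they were -0.36 to 0.59 for Dnmt3a and -0.013 to 0.25 for Ezh2. For the difference of effects Hdac3 ranged from -0.26 to 0.0088.

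The count of member probe sets called in whole prostate, 2, became 4 with a pseudocount of 64, a filter at the 50th percentile or array weights, 5 with a trended robust prior, 1 with the 4 compared arrays alone, and 0 to 2 with an array left out. In epithelium it rose from 0 to 1, 1 and 2 with a pseudocount of 64, the stricter filter and the trended prior, and in the difference of effects from 0 to 1 and 3 with the pseudocount and that prior. For control epithelium against whole prostate the 15 became 27 with median centring and 7 to 14 with an array left out, and the members' median moved from -0.10 to -0.32 with median centring. For vinclozolin arrays the 17 became 11 with the compared arrays alone and 8 to 18 with an array left out. With the replicate block the 5 counts were 2, 0, 0, 12 and 15, so it moved none by over 1.5 times. Dim probe sets under the filter, such as those of Dnmt3b and Tet1, were not tested.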
